A study of Homo sapiens with 6 samples.

Results

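The genes described here are 9 neighbours on the long arm of human chromosome 5: SLU7, PTTG1, GABRB2, CCNG1, NUDCD2, HMMR, MAT2B, TENM2 and WWC1, in chromosome order. They are a stretch whose expression was already known to be far lower in the transfected cells of this series, CCNG1 to TENM2, with the genes that flank it. Their differences between the groups are therefore given as a description, without a test. The 9 genes are read by 23 of the 54613 probe sets tested, and by 9 of 19777 genes when each gene is read by its brightest probe set. Each of the 23 probe sets names 1 gene only.

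RNA came from the established line MDA-MB-436, human breast tumour cells with a mesenchymal character, and was measured on 6 Affymetrix arrays. A first group of 3 arrays is labelled wild type. The other group of 3 arrays is labelled NF1-C2S transfected; per the series record these cells stably carry an expression plasmid for NF1-C2, which belongs to the nuclear factor I family of transcription factors. All cells grew in the same serum and insulin medium, the comparison cells are not said to carry an empty plasmid, and the labels do not tell whether 1 clone or a pool was profiled. They also do not call the replicates separate cultures, so p-values measure only the spread between these arrays, and that spread may be technical.

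These neighbours have unrelated jobs. SLU7 helps choose the 3' splice site in the second step of splicing. PTTG1, or securin, holds back separase until sister chromatids part at anaphase. GABRB2 is a subunit of the GABA-A receptor, a chloride channel of neurons. CCNG1, cyclin G1, brings the phosphatase PP2A to the ubiquitin ligase MDM2. NUDCD2 is a cofactor of the HSP90 chaperone that stabilises LIS1, a regulator of the dynein motor. HMMR binds hyaluronan at the cell surface and, inside the cell, the mitotic spindle. MAT2B is the regulatory subunit of the enzyme that makes S-adenosylmethionine, the methyl donor of the cell. TENM2 is a teneurin, an adhesion protein that binds latrophilins, and WWC1 (KIBRA) is an upstream activator of the Hippo pathway.

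Expression of the central genes was far lower on the arrays labelled transfected. CCNG1, NUDCD2, HMMR and MAT2B were lower by 4.74 to 5.82 on the log2 scale, with a median difference of -4.94, and TENM2 was lower by 3.68. The flanks SLU7, PTTG1 and WWC1 were lower by 0.46 to 0.66, and GABRB2 was low in both groups. In RNA from whole cultures, fewer cells that express a gene and less RNA per cell cannot be told apart. All values are RMA log2 expression, differences are transfected minus wild type, and 4.83 is the median of all probe sets. Where a group mean was under that median a fold is given as "at least", because RMA compresses differences near background. The transfected means of HMMR (5.26) and MAT2B (5.45) were only a little above it, so their folds may be compressed as well. Of the 9 genes, 5 were lower by 4-fold or more, as were 0.834% of all genes. The groups did not overlap for 8 of the 9 (43% of all genes), and 8 passed an adjusted p under 0.05 in limma, all of them lower (31.9% of all genes passed and 16.9% were lower). As the genes were chosen on this contrast, nothing is read from these counts.

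**Figure D1:**
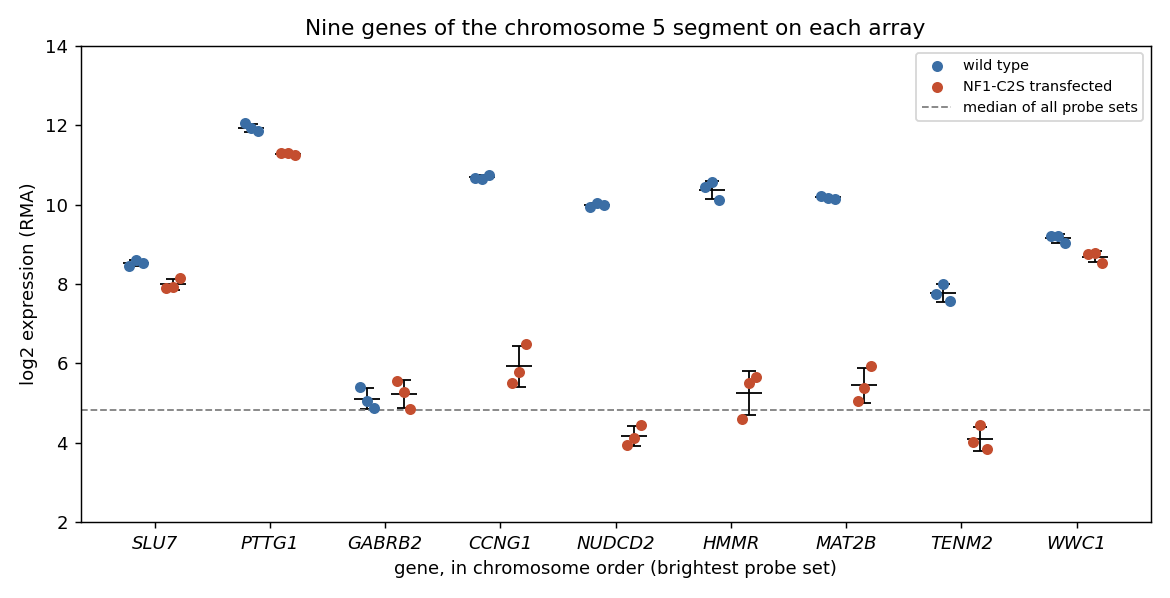
Log2 expression of the 9 genes (brightest probe set) on each of 6 arrays, in chromosome order; points are arrays, black bars the mean ± SD of 3 arrays and the dashed line the median of all probe sets, 4.83. CCNG1, NUDCD2, HMMR, MAT2B and TENM2 separate widely, SLU7, PTTG1 and WWC1 narrowly, and the groups of GABRB2 overlap.

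The first of the central genes is CCNG1. It is read by 1 probe set, 208796_s_at, which gave 10.67, 10.65 and 10.75 in the wild type arrays and 5.50, 5.79 and 6.49 in the transfected arrays. The highest transfected array lay far under the lowest wild type array. The means were 10.69 ± 0.05 and 5.93 ± 0.51 (SD, n = 3 each), a 27.2-fold difference, so that the transfected signal was 3.68% of the wild type signal on the linear scale.

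NUDCD2 showed the widest gap. Its brightest probe set, 226642_s_at, gave 9.94, 10.04 and 9.99 against 3.94, 4.13 and 4.44, with means of 9.99 ± 0.05 and 4.17 ± 0.25 and a difference of at least 56.5-fold. The transfected arrays lay under the median of all probe sets, and the groups were far apart. A dimmer probe set, 226643_s_at, went from 5.73 ± 0.16 to 3.36 ± 0.29, at least 5.16-fold. The remaining one, 1558124_at, was under the median in both groups, at 3.84 ± 0.05 and 3.69 ± 0.12, and its groups overlapped.

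HMMR is read by 2 bright probe sets, and both separated the groups. Probe set 207165_at gave 10.44, 10.56 and 10.12 against 4.61, 5.51 and 5.65, a 34.7-fold difference between means of 10.37 ± 0.23 and 5.26 ± 0.56. The second, 209709_s_at, gave 9.34, 9.36 and 8.92 against 3.92, 4.50 and 4.71, at least 28.4-fold. Wild type replicate 3 was the lowest wild type array and transfected replicate 1 the lowest transfected array on each of them. Differences of -5.12 and -4.83 from separate probe sets were within the SD of the transfected arrays of each other.

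MAT2B gave 10.23, 10.18 and 10.15 against 5.05, 5.37 and 5.93 on 217993_s_at. The wild type arrays lay close together, and every transfected array was far lower. The means of 10.19 ± 0.04 and 5.45 ± 0.45 differ 26.7-fold. Its other probe set, 229284_at, was under the median in both groups (4.35 ± 0.19 and 3.78 ± 0.22) and differed by -0.57.

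TENM2, the last of the run, is read by 231867_at alone. It gave 7.76, 8.0 and 7.57 in the wild type arrays and 4.01, 4.44 and 3.85 in the transfected arrays. The groups did not overlap, and the transfected mean of 4.10 ± 0.31 was under the median of all probe sets, against 7.78 ± 0.22 in wild type, at least 12.8-fold.

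The residual signal of the central genes varied between the transfected arrays in a common order. The contrast on which the genes were chosen used these same arrays. On all 6 probe sets of CCNG1, NUDCD2, HMMR and MAT2B with a wild type mean above the median, transfected replicate 1 was the lowest and replicate 3 the highest array. On 226642_s_at, 226643_s_at and 209709_s_at every transfected value was under the median of all probe sets, so the order there is one of dim signal. Replicate 3 exceeded replicate 1 by 0.99 for CCNG1, 0.50 for NUDCD2, 1.04 for HMMR and 0.88 for MAT2B. TENM2 did not share it, with replicate 3 lower than replicate 1 by 0.16 (log2 difference -0.16). Among 160 other genes that were above the median in wild type and lower by 4-fold or more, 46 had this order (28.8%). Over all 160, the median of replicate 3 minus replicate 1 was 0.21. This order was noticed after the values were seen; the 4 genes share their 6 arrays, and the common order was not tested.

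The start regions of these genes are shown because the central genes were lower together, and the letters before their starts can be set side by side. The windows, from RefSeq on GRCh38.p14, hold the 250 bases before an annotated start, on the strand of the gene: chr5:160421605-160421854 (plus strand, PTTG1), chr5:163437321-163437570 (plus, CCNG1), chr5:163460103-163460352 (minus, NUDCD2), chr5:163460382-163460631 (plus, HMMR) and chr5:163505369-163505618 (plus, MAT2B). PTTG1 stands for a flank whose expression differed little. The windows of SLU7, GABRB2, TENM2 and WWC1 are not printed, and their counts are given below. NUDCD2 and HMMR face away from each other, with 530 bases between their starts. Capitals mark the searched letters, on either strand: the nuclear factor I arm TTGGC, the CCAAT box CCAAT and the cell cycle element TTTGAA.
PTTG1: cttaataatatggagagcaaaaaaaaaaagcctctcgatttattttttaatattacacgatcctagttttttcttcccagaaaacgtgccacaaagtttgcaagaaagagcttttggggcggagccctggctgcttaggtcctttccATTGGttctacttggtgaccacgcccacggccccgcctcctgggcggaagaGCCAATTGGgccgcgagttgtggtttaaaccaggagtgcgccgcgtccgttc
CCNG1: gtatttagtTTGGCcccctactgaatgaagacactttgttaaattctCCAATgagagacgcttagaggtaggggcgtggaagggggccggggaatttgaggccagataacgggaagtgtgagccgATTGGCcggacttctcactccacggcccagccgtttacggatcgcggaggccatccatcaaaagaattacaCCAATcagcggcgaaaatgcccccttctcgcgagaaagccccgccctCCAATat
NUDCD2: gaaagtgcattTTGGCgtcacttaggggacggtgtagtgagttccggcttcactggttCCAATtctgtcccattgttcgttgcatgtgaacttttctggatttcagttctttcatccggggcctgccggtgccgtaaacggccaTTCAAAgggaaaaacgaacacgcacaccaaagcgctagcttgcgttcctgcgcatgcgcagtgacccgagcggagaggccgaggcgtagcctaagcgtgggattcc
HMMR: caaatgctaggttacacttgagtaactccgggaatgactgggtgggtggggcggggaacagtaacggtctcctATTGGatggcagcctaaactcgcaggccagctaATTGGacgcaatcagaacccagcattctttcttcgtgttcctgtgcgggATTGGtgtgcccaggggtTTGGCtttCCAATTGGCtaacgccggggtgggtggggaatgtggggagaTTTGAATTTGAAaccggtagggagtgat
MAT2B: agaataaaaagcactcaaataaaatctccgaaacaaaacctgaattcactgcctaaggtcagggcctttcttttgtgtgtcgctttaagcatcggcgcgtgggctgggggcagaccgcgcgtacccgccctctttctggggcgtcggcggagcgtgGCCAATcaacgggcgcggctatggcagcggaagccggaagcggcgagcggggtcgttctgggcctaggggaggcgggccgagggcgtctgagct

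All 9 genes had a window, 13 windows in all, and the search ran over 300 bases, 250 before and 50 after the start. The full nuclear factor I palindrome, TTGGC and GCCAA with 5 bases between them, was in none of the 13, as in all but 10 of 35114 windows of all genes (0.0285% hold it). The single arm TTGGC is common, in 45.6% of all windows. The printed windows held 1 for PTTG1, 2 for CCNG1, 1 for NUDCD2, 2 for HMMR and 1 for MAT2B. Where a gene had 2 windows, the one with the most matches was printed. Printed counts are therefore not comparable with the shares of all windows. The unprinted windows held 1 arm for PTTG1, 1 for CCNG1 and 0 for MAT2B. CCAAT, in 34.6% of all windows, was found 3 times for PTTG1, 4 times for CCNG1, 1 time for NUDCD2, 5 times for HMMR and 1 time for MAT2B. The unprinted windows held it 3, 4 and 0 times for PTTG1, CCNG1 and MAT2B. Of the genes not printed, SLU7 had 2 arms and 1 CCAAT box, WWC1 1 and 0, and GABRB2 0 and 0. TENM2 had 2 arms and 0 boxes in 1 window and 0 of both in the other. In SLU7, PTTG1, CCNG1, HMMR and MAT2B, 1 arm each overlaps a CCAAT box read on the other strand, as in the letters ATTGGC, so the counts are not independent. Among the printed windows TTTGAA, in 15.2% of all windows, stands 2 times next to itself in HMMR, from 28 bases before the start, and 1 time in NUDCD2. It was also in the unprinted MAT2B window and in windows of GABRB2 and TENM2. The E-box CACGTG (7.26% of all windows) was found in no window of the 9 genes. These matches describe letters and do not show a bound site.

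The flanks differed by far less than the central genes. SLU7 gave 8.45, 8.61 and 8.54 against 7.89, 7.93 and 8.15 on 227990_at, and the groups did not overlap. The means of 8.53 ± 0.08 and 7.99 ± 0.14 differ by -0.54, and a second probe set, 231718_at, differed by -0.69. PTTG1 gave 12.05, 11.92 and 11.86 against 11.31, 11.30 and 11.24, again without overlap. Its difference of -0.66 left 63.3% of the wild type signal, on 203554_x_at, a probe set that by its ending may also read related sequences.

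GABRB2, which lies between PTTG1 and CCNG1, was read by 3 probe sets. The brightest gave 5.41, 5.05 and 4.89 against 5.55, 5.27 and 4.85, so that the groups overlapped around a difference of 0.11. The others stayed at or under 2.91 on every array.

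WWC1, at the far end, is read by 8 probe sets that did not all go the same way. The brightest, 213085_s_at, gave 9.22, 9.22 and 9.03 against 8.76, 8.78 and 8.54, a difference of -0.46 without overlap, and 216074_x_at differed by -0.49. Probe set 243290_at gave -0.57 without overlap, and 236725_at and 237238_at gave -0.40 and -0.34 with overlap. Probe set 241950_at went up instead, from 4.58 ± 0.14 to 5.11 ± 0.21 without overlap, and 229180_at and 1554511_at gave 0.12 and 0.08 with overlap. The mean over all 8 was a difference of -0.19. Of the 23 probe sets of the 9 genes, 15 did not overlap between the groups (34.9% of all probe sets), 14 of them lower (17.8%) and 1 higher. In the fit over probe sets the same numbers passed, 15 in all (22.2% of all probe sets), 14 lower (11.4%) and 1 higher (10.8%). Because the genes were chosen on this contrast, nothing is read from these counts either.

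**Figure D2:**
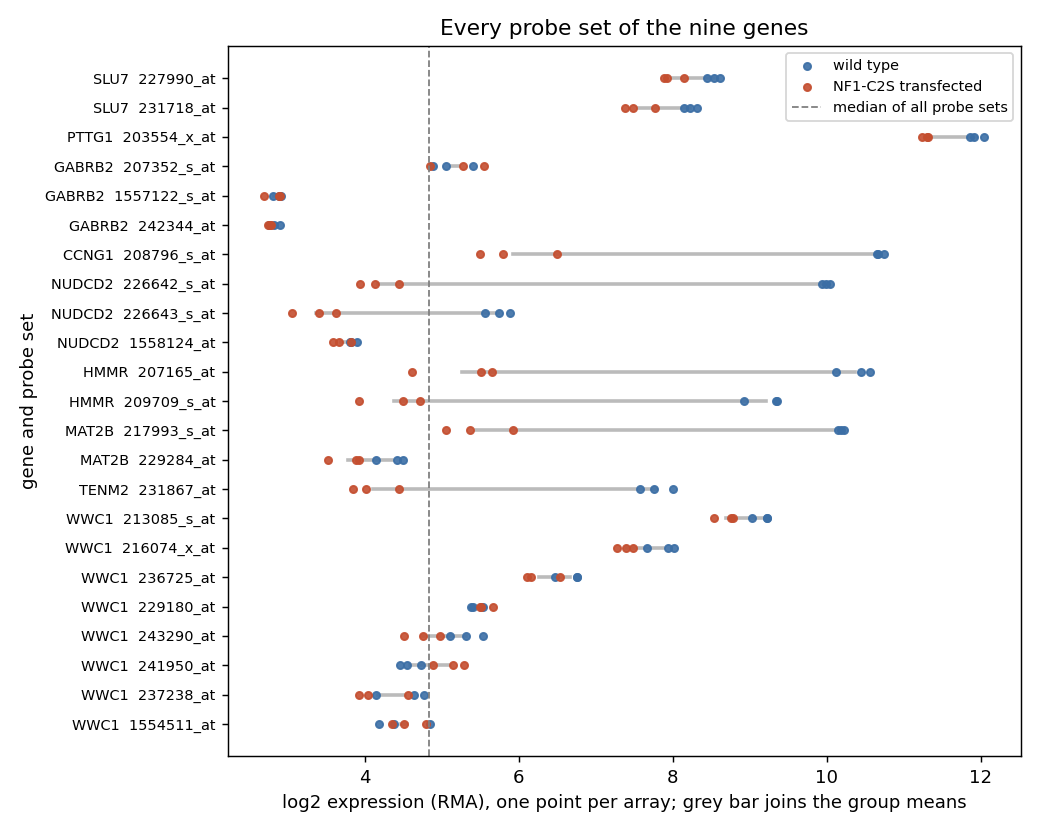
Log2 expression of all 23 probe sets of the 9 genes, 1 row per probe set and 1 point per array; grey bars join the group means and the dashed line is the median of all probe sets. The bright probe sets of CCNG1, NUDCD2, HMMR, MAT2B and TENM2 span the longest bars, and 1 probe set of WWC1, 241950_at, is higher in the transfected arrays without overlap.

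Genes around the 9 were read in the fit over all genes. The 9 were chosen with this contrast known, so where the stretch ends and which genes it skips may depend on the values of these neighbours. Their counts are therefore a description and no independent test. The 45 measured neighbours are the 5 between SLU7 and WWC1 and the 20 beyond each end. Of these, 20 fell, 1 rose and 24 did not pass (limma, adjusted p under 0.05), where 16.9% of all genes fell and 15% rose. Among the 25 neighbours with a wild type mean above the median, 18 fell, 7 did not pass and 0 rose (0 also at an unadjusted p under 0.05), where 24.7% of all such genes fell and 21% rose. Their median difference was -0.84, against -0.02 over all such genes. This filter read the wild type arrays only, so a gene that rose from a dim start, as MIR146A did, is not among the 25. With genes above the median in at least 1 group, 18 neighbours fell and 1 rose. Of the 540 other genes of chromosome 5 above the median, 148 fell and 137 rose, with a median of -0.02.

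Before SLU7, 12 of 20 genes fell. TTC1, a tetratricopeptide protein, gave 9.78 ± 0.04 and 8.68 ± 0.06 (log2 change -1.10, SE 0.07, limma adjusted p = 3.14e-05). Similar falls were read for THG1L (-1.02), which adds the first base of histidine tRNA, the histone pre-mRNA factor LSM11 (7.95 to 6.95), the H2A.Z reader PWWP2A (-0.92), the ubiquitin ligase RNF145 (-0.89), the proteasome phosphatase UBLCP1 (-0.88) and the clathrin adaptor CLINT1 (-0.73). Larger falls were those of FAM200C (7.43 ± 0.32 to 5.34 ± 0.57, -2.09), the sheddase ADAM19 (-1.76) and C1QTNF2 (-1.60). FABP6, a bile acid carrier, fell by 0.84 and the transcription factor EBF1 by 0.81, both from levels near or under the median. For the mean of all probe sets of a gene the falls were smaller in ADAM19 (-0.83), EBF1 (-0.52), FABP6 (-0.33), PWWP2A (-0.37) and RNF145 (-0.46), each still past the threshold. None of these 12 differences came near those of the central genes.

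After WWC1, 7 of 20 genes fell. SPDL1, which recruits dynein to kinetochores, fell from 10.58 ± 0.11 to 8.88 ± 0.14 (-1.70), but its probe set without the _s_at ending read -0.17 (limma adjusted p = 0.396). The growth factor FGF18 fell by 1.68, pantothenate kinase PANK3 by 0.86, the F-box protein FBXW11 by 0.59 and the arginine tRNA ligase RARS1 by 0.54. For the mean of probe sets SPDL1 read -0.93 and FGF18 -0.49, both still past the threshold. The guidance protein SLIT3 fell by 0.82, while the mean of its probe sets read -0.26 (limma adjusted p = 0.13), and the homeobox gene TLX3 by 0.50, a call lost without wild type replicate 2 (limma adjusted p = 0.0508). NPM1, a very bright nucleolar gene named here after its values were seen, gave 13.89 and 13.75 and did not pass (limma adjusted p = 0.167).

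The 5 genes between the members had wild type means under the median of all probe sets; 1 fell, 1 rose and 3 did not pass. HMMR-AS1, an antisense RNA of HMMR, fell from 3.72 ± 0.09 to 3.17 ± 0.08 (-0.55, limma adjusted p = 0.0014), a fall within the dim range. ATP10B, GABRA6 and LOC102546299 lay under the median in both groups and did not pass, with differences of -0.08, -0.13 and 0.08. The exception in direction was the probe set that the platform assigns to MIR146A, a locus known as a target of NF-kappaB. It gave 4.15 ± 0.27 and 6.43 ± 0.21, a rise of 2.28 (SE 0.16, limma adjusted p = 4.33e-05) between PTTG1 and GABRB2. The mean of the probe sets assigned to it read 1.15. This array does not show whether the mature microRNA followed.

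**Figure D3:**
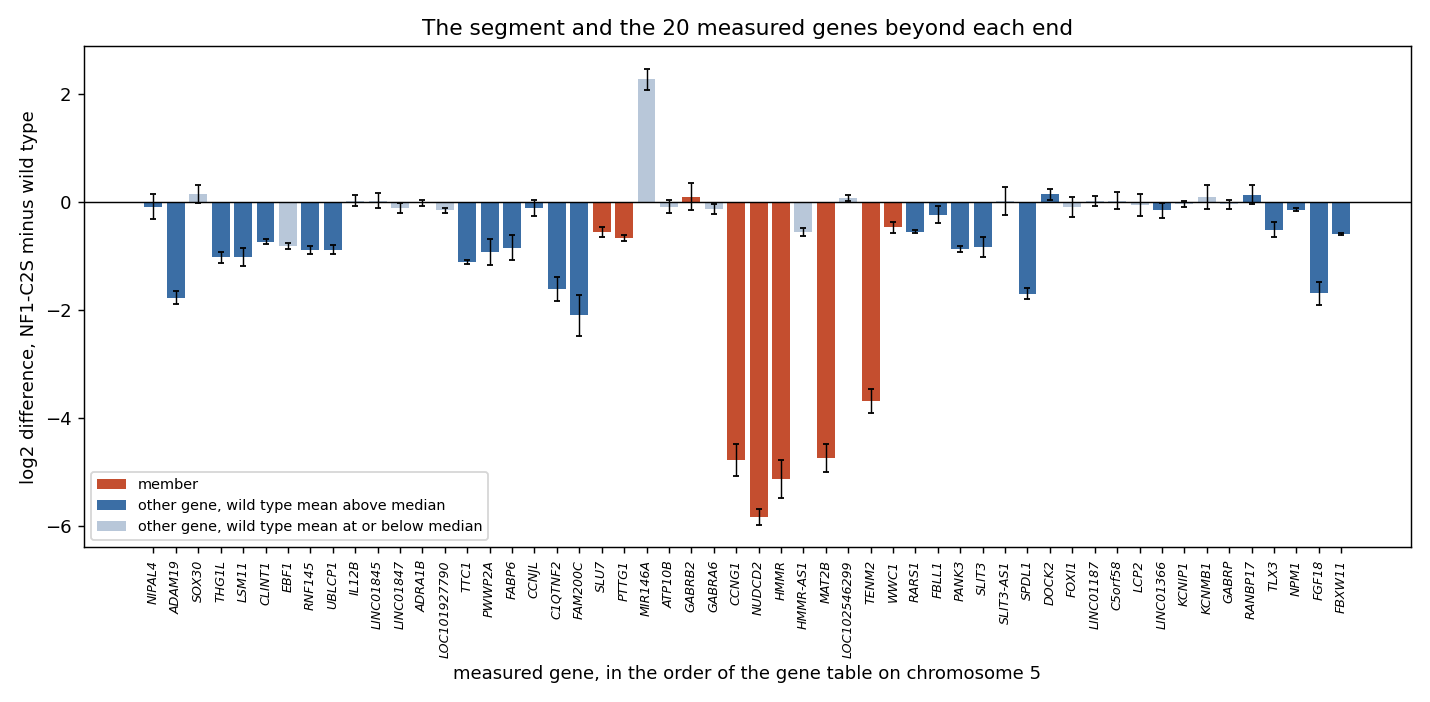
Log2 difference, transfected minus wild type, of 54 measured genes of chromosome 5 in order: the 9 members (red), and 45 other genes with a wild type mean above (blue) or not above (pale) the median of all probe sets. Bars start at 0 and error bars are the standard error from the SDs of 3 and 3 arrays; the central genes reach -4.74 to -5.82, the 18 blue neighbours that fell lie between -0.50 and -2.09, and MIR146A stands at 2.28.

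Going outward through genes above the median, 13 were passed before SLU7, 11 of them with a fall, until CYFIP2, which rose by 1.11. After WWC1, 16 genes were passed, 9 of them with a fall, until DUSP1, a phosphatase of MAP kinases, which rose by 0.94. A running median of 15 such genes along chromosome 5 was lowest at SLU7, at -1.10, and with the 9 genes left out its lowest value was -0.92, at RNF145. One-sided stretches were also found elsewhere: on chromosome 3, 42 genes above the median in a row, SLC6A11 to TBC1D5, were lower with a median of -0.61.

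**Figure D4:**
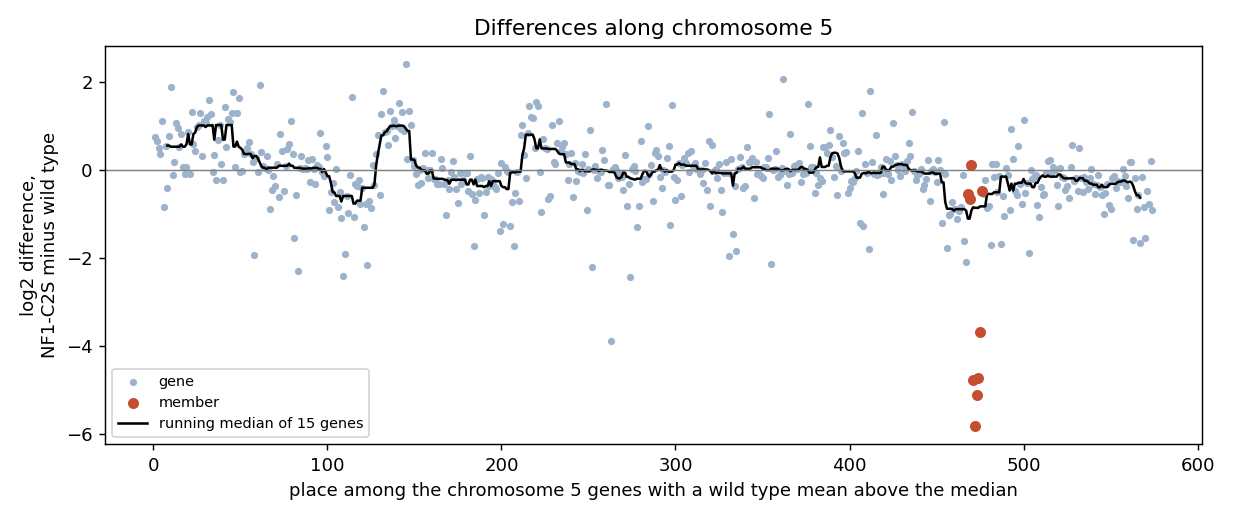
Log2 difference, transfected minus wild type, of 574 chromosome 5 genes with a wild type mean above the median, by their place along the chromosome; red points are members and the black line is a running median of 15 genes. The line dips to -1.10 around the members, where single points reach -5.82, and is as high as 1.03 near the other end.

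As a run of strong falls the segment was the longest of its kind. Among 12746 genes above the median in wild type, 165 were lower by 4-fold or more (1.29%). Consecutive genes of this kind formed 7 runs of at least 2 genes, and the only run of 4 or more was CCNG1, NUDCD2, HMMR, MAT2B and TENM2. The next was the trio AKR1C1, AKR1C2 and AKR1C3 on chromosome 10, steroid-metabolising enzymes whose sequences are so alike that probe sets may read more than 1 of them. This is a count over these arrays, for genes chosen because of it, and has no test.

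The 5 genes outside the 9 whose 6 values were most like the mean of CCNG1, NUDCD2, HMMR and MAT2B lie on other chromosomes. Likeness was the root mean square difference over the 6 arrays after each gene was centred on its mean. It was 0.24 for KYNU on chromosome 2, 0.27 for NID2 on chromosome 14, 0.31 for SLC14A1 on chromosome 18, 0.32 for S100P on chromosome 4 and 0.32 for CD24 on chromosome 6. For comparison, the 4 genes themselves were 0.17 to 0.37 from their mean and TENM2 0.80. KYNU, a tryptophan-pathway enzyme, also had its lowest transfected value in replicate 1 and its highest in replicate 3 (5.77, 6.03 and 7.04). CD24 had this order too (6.75, 6.95 and 7.47), and NID2, SLC14A1 and S100P did not. Because likeness used these same 6 values, a shared order is partly built in.

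The partners of the 9 proteins, from lists of the pathways, went both ways. Of 195 measured partners, 48 fell, 41 rose and 106 did not pass, with a median difference of 0.01. Of the 195, 168 had a wild type mean above the median, and of all genes above it 24.7% fell and 21% rose. The 195 include the 22 genes of 1 list that is not reported here. These lists were drawn up with earlier results in view.

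Of 12 partners of cyclin G1 and PP2A subunits, 4 fell and 2 rose. MDM2 rose from 7.81 ± 0.10 to 8.71 ± 0.05 (0.91), with a probe set average of 0.35. The changes of the phosphatase subunits were smaller: PPP2CB 0.37, PPP2R1B -0.38 and PPP2R5E -0.30. For the mean of their probe sets PPP2R1B and PPP2R5E read 0.066 and 0.35, the opposite direction. CCNG2, the paralog of CCNG1, rose from 5.90 ± 0.27 to 7.60 ± 0.23 (log2 change 1.70, limma adjusted p = 0.000197) and by 1.02 as a probe set average. The related cyclin CCNI rose by 0.66. The paralogs in all had 3 falls and 2 rises among 13, and the WWC1 relative WWC3 fell by 0.55.

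Of 12 spindle partners of HMMR, all above the median in wild type, among them BRCA1, AURKA and TPX2, 1 rose and 0 fell (0 also at an unadjusted p under 0.05, and 3 higher; limma). Of all genes above the median 24.7% fell and 21% rose, and the difference from them was not tested. The one that passed was the spindle pole protein NUMA1, by 0.38, and the mean of its probe sets read 0.10 (limma adjusted p = 0.344). Hyaluronan genes had 5 falls and 1 rise among 14. The synthase HAS3 fell from 10.22 ± 0.05 to 7.19 ± 0.41 (-3.03), UGDH, which makes the precursor sugar, by 0.96 and the hyaluronidase HYAL3 by 0.85, while the hyaluronan-binding TNFAIP6 rose by 1.34. The mean of the HAS3 probe sets read -1.62.

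For NUDCD2, 7 of 24 dynein, LIS1 and NUDC genes fell and 6 rose (median 0.04). The light chain DYNLT1 fell by 0.94, the relative NUDCD3 by 0.92, the LIS1 partner NDE1 by 0.86 and the dynactin subunit DCTN5 by 0.68. The means of all probe sets were smaller for NDE1 (-0.24) and NUDCD3 (-0.37). NUDCD3 and DCTN5 read 0.03 and 0.047 on probe sets that do not end in _s_at or _x_at, and the call of DCTN5 was lost for the mean of its probe sets (-0.18, limma adjusted p = 0.0994).

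For MAT2B, 2 of 19 genes of the methionine cycle and polyamines fell and 4 rose. MTRR, which reactivates methionine synthase, rose from 8.26 ± 0.11 to 9.84 ± 0.06 (1.59), the synthase MTR by 0.48 and the salvage enzyme ADI1 by 0.42, and the salvage enzyme MTAP fell by 0.46. MTRR also lies on chromosome 5, at a place where the running median was 1.02; the part of that stretch in its rise was not tested.

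For PTTG1, 6 of 24 genes of separase, cohesin and the anaphase-promoting complex fell and 8 rose (median 0.08). The cohesin protector SGO1 fell by 1.06 and ANAPC7 by 0.69, while ANAPC5 rose by 0.77 and the cohesin subunit STAG1 by 0.63. For SLU7, 2 of 17 splicing factors fell and 3 rose. The helicase SNRNP200 rose by 0.79 and EFTUD2 fell by 0.58 (-0.13 on a probe set not ending in _s_at or _x_at, limma adjusted p = 0.669). The mean of the EFTUD2 probe sets read -0.36. BUD31 rose by 0.98 on its brightest probe set, by 0.44 as a probe set average, and read -0.10 on one not ending in _s_at or _x_at. PRPF18, which acts beside SLU7, fell by 0.47, a call lost for the mean of its probe sets (-0.14, limma adjusted p = 0.319) and without transfected replicate 2 or wild type replicate 2 or 3 (limma adjusted p = 0.072, 0.0721 and 0.0608).

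For TENM2, 3 of 9 teneurins, latrophilins and FLRT proteins fell and 0 rose (1 at an unadjusted p under 0.05; limma). The latrophilin ADGRL3 fell by 1.19, reading -0.24 on a probe set not ending in _s_at or _x_at (limma adjusted p = 0.076) with a probe set average of -0.75. FLRT2, a ligand of latrophilins, fell by 1.07. ADGRL1 fell by 0.44, lost without transfected replicate 1 or 3 or wild type replicate 3 (limma adjusted p = 0.0502, 0.0745 and 0.0749). For WWC1, 8 of 27 Hippo genes fell and 7 rose (median 0.02). The scaffold AMOTL1 fell from 8.55 ± 0.13 to 6.77 ± 0.28 (-1.78, with a probe set average of -0.98) and the core kinase STK3 by 1.02, while the phosphatase PTPN14 and the scaffold DLG5 rose by 0.77 and 0.76.

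For GABRB2, 2 of 15 GABA-A receptor genes fell and 2 rose, and 5 of the 15 were above the median in wild type. GABRA5 fell from 6.71 ± 0.47 to 4.52 ± 0.33 (-2.18) and GABRA2 rose from 3.21 ± 0.11 to 4.66 ± 0.37, within the dim range. The means of their probe sets read -1.38 and 0.75. GABRQ fell by 0.37 (probe set average -0.24), lost without wild type replicate 2 (limma adjusted p = 0.051), and GABARAP rose by 0.34, lost without transfected replicate 2 or 3 or wild type replicate 1 or 2 (limma adjusted p = 0.0605, 0.0981, 0.113 and 0.121).

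As a check of the labelled cells, 3 of 4 mesenchymal markers passed as lower in the transfected arrays (limma). Of all genes 16.9% passed as lower, and of those above the median in wild type 24.7%. VIM went from 13.54 to 13.01, fibronectin, FN1, from 10.21 to 7.44 (-2.77, limma adjusted p = 5.78e-06) and ZEB1 from 8.62 to 8.21, while CDH2, at 9.19 and 9.37, did not pass. Of the epithelial markers the keratin KRT18 fell from 12.55 to 11.62, EPCAM, KRT8 and CDH1 did not pass, and CDH1, E-cadherin, read 3.42 and 3.44. The part of these changes in the results above was not tested. Of 10 measured markers of leukocytes, endothelium and fibroblasts, 6 were at or under the median in both groups, PTPRC, VWF and CDH5 among them. The 4 others were CD14, PECAM1, COL1A1 and THY1, of which CD14 passed, with a rise of 0.82 (limma adjusted p = 0.00947). Correlations between arrays of 1 group were 0.992 to 0.997 over all probe sets, and those between groups 0.971 to 0.976.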

How the data were processed

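The deposited table holds log2 values, 1 column for each array. RMA, a method that subtracts background, equalizes the arrays and sums up each probe set, is the tool named in the submitters' processing notes, without a version. The table was used as deposited. Its 62 control probe sets were left out, and probe sets were named through the platform annotation, with symbols and gene order from RefSeq on GRCh38.p14 (35114 promoter windows from the same build). A gene was read by its brightest probe set over 6 arrays among those naming 1 gene. The groups were compared with limma 3.58.1 in R 4.3.3 (empirical Bayes, two-sided, Benjamini-Hochberg over 19777 genes, or over 54613 probe sets for counts of probe sets, threshold 0.05). The fit was tested on simulated data. Arrays have no read depth, and 3 arrays per group limit the precision. The median SD of a probe set was 0.110 (wild type) and 0.119 (transfected).

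The members, the lists and the tests were chosen with earlier results of these data known. The text names the 9 members, all measured genes between them, neighbours that passed, up to 4 genes per list with the largest change past the threshold, and the 5 genes most like the central run. Deviations from the group means were correlated between arrays of the same replicate number in the labels (0.398, 0.238 and 0.140 for replicates 1, 2 and 3). Pairs with different numbers gave -0.277 to 0.142. The highest of these, wild type replicate 2 with transfected replicate 3, was as high as the matched pair of replicate 3. A pairing by number was thus seen for replicates 1 and 2 only. Blocks by replicate number were used in an additional fit. Other alternatives were scalings, other choices of probe set, a trended prior, a filter on dim genes and leaving out each array. Results on 1 item, its list and its promoter element are not reported here.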

Additional observations from a re-analysis of the deposited data

How the results depend on the processing

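Bright probe sets carry the central differences. With only probe sets that do not end in _s_at or _x_at, the median over those of CCNG1, NUDCD2, HMMR and MAT2B that have one was -0.57 in place of -4.94. In that setting 2 in place of 5 members were lower by 4-fold or more. There 16 in place of 20 neighbours and 31 in place of 48 list genes fell, among the genes that have such a probe set. NUDCD2 and MAT2B are then read by probe sets under the median in both groups (-0.15 and -0.57), and CCNG1 has none. With the mean of all probe sets the same median was -3.77, with NUDCD2 at -2.78 and MAT2B at -2.65. Leaving out 1 array at a time gave -5.18 to -4.67 for it, 19 to 21 neighbours that fell and 1 to 2 that rose, the second without wild type replicate 3. Without _s_at and _x_at probe sets the direction turned for BUD31 (-0.10), DCTN5 (0.047), FAS (0.05, against -4.11; a gene of the list not reported here), NUDCD3 (0.03) and PPP2R1B (0.63), and with the mean of probe sets for PPP2R1B (0.066) and PPP2R5E (0.35); the cause was not tested. With the replicate block 20 neighbours fell and 1 rose, 3513 genes fell and 3152 rose in all, against 3339 and 2961 without it, and it ended the call of none of the 63 named genes outside the 9, nor did the quantile or median scalings. Of these 63, which include the genes named from the unreported list, 16 lost their call or direction under some alternative, 5 of them when 1 array was left out. Signal near background limits what dim probe sets can show.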

Other observations

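Other stretches of chromosome 5 had running medians away from 0. The running median of 15 genes above the median in wild type reached 1.03 around SEMA5A, a semaphorin, near the other end of the chromosome from the 9 genes. It reached 1.01 around ADAMTS6, next to the splicing factor CWC27. Between these high stretches it went down to -0.76, at GPX8, a peroxidase of the endoplasmic reticulum, and CCNO, a cyclin. Inside the high stretch at SEMA5A, SEMA5A itself read -0.05. These stretches were chosen after their values were seen and have no test.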
